A study of Rattus norvegicus with 8 samples.

Results

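Oxidative phosphorylation is carried out by 5 protein complexes of the inner mitochondrial membrane, and 84 genes that encode their parts were followed in rat lung after ventilation with large breaths. They were chosen by name, as the genes whose symbol begins with Ndufa, Ndufb, Ndufc, Ndufs, Ndufv, Uqcr, Cox4 to Cox8 or Atp5, or is Sdha, Sdhb, Sdhc or Sdhd. The rule works on names alone, and a gene with several probe sets was read by the one with the highest mean. The 84 genes are among 11217 that the array reads with a probe set of a single symbol, and 82 of them were among the 10240 genes tested. Cox6a2 and Ndufaf1 were too low to be tested. The genes fall into 6 core and 28 supernumerary subunits of complex I, 4 subunits of complex II, 7 of complex III, 17 of complex IV and 16 of ATP synthase, the last with its inhibitor Atp5if1. The name pattern also takes in 6 Ndufaf genes, whose products help to assemble complex I and are not part of it. Genes carried by the mitochondrial genome do not match the pattern.

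Complex I takes electrons from NADH and complex II takes them from succinate, and both hand them to ubiquinone. Complex III passes them on to cytochrome c and complex IV passes them to oxygen, while complexes I, III and IV pump protons across the membrane. ATP synthase lets the protons flow back and makes ATP. In the lung, alveolar type 2 cells are rich in mitochondria, whose ATP supports surfactant production and ion transport, whereas many other lung cells rely more on glycolysis.

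Affymetrix arrays measured RNA of the dorsal-caudal lung quadrant from male Sprague-Dawley rats of 340 to 400 g. 3 rats were ventilated prone and 3 supine, under anesthesia and through a tracheotomy, with a tidal volume of 18 mL/kg at 40 breaths per minute and a positive end-expiratory pressure of 0 cmH2O for up to 3 h. 2 rats were not ventilated and served as controls. The labels do not say whether the controls had the same anesthesia and surgery, so ventilation cannot be told apart from them. Titles mark prone samples HVt but supine ones SVt. Groups follow the condition label, which names a high tidal volume in either position. Values are log2 expression summaries, on which a difference of 1 is a doubling. No p-value below measures more than the spread between these 8 samples.

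The tissue carried lung markers on every array, with 8 alveolar type 2 markers averaging 13.86 to 13.96 in controls and 13.07 to 13.81 on ventilated arrays, all 6 of which lay below both controls. Of these 8 markers 7 were lower in prone and 8 in supine lungs, and the part of type 2 cells in the results below was not tested. The mean of 6 neutrophil markers was 6.91 to 7.28 in controls and 9.02 to 12.07 in ventilated lungs, highest on prone replicate 1 at 12.07 and supine replicate 1 at 11.29. The mean of 6 lymphocyte markers was lower, at 4.48 to 6.96 against 7.72 to 9.11 in controls. So was that of 5 alveolar type 1 markers (12.74 to 13.38 against 13.68 to 13.78). Of these, 4 were lower in each position, while Pdpn was higher by 0.57 in prone and 0.62 in supine lungs. Also lower was the mean of 5 endothelial markers (12.05 to 13.0 against 13.07 to 13.13). The mean of 5 cardiac muscle markers was 2.88 to 2.93 in controls and stood out at 9.06 on prone replicate 2 and 7.56 on supine replicate 3. The mean of 4 hepatocyte markers was 9.26 on supine replicate 3 and at most 6.25 on the others. On supine replicate 3 the actin 3′ probe set exceeded the 5′ one by 9.10, against 3.16 to 4.64 on the other 7 arrays, a sign of RNA broken down or incompletely copied at its 5′ end. Where leaving out an array moved a named value by much, the value without it is given. In tissue RNA, fewer cells of a type and less RNA per cell cannot be told apart.

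The promoters of these genes were read first, because genes of the respiratory chain are known for sites of nuclear respiratory factor 1 (NRF1) and of ETS factors such as GABP (nuclear respiratory factor 2). RefSeq's table for the GRCr8 assembly held a promoter, 250 bases before to 50 after a start site, for 77 of the 84 genes. The NRF1 motif, GCGCA and GCGC with any single base between them, on either strand, lay in 15 of them (19.5%), against 4.25% of all 33469 promoters of that table and 5.67% of those of protein-coding genes. The ETS motif CCGGAAG lay in 22 (28.6%), against 8.75% of all promoters and 10.7% of coding ones. The general motifs did not stand out in that way. CCAAT was found in 33.8% of the genes and 37.5% of all promoters, and TATAAA in 10.4% and 14.2%. Only Atp5me held both the NRF1 and the ETS motif, and 41 of the 77 promoters held neither. Complex IV had no NRF1 match in 14 promoters and ATP synthase had one in 5 of 15. These matches are letters in a window and show no binding. For some genes, Atp5me among them, the start site of the window differed from the start in RefSeq's list of genes.

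4 promoters illustrate the range, each given as the 250 bases upstream of the start site, 5′ to 3′ on the strand of the gene, with motif matches in capitals. Ndufa11 has overlapping NRF1 matches that begin 97 and 91 bases upstream (chr9:1637364-1637613, plus strand). Atp5po has 1 NRF1 match, 59 bases upstream (chr11:44657484-44657733, minus strand). Cox8a has ETS matches on the opposite strand, 57 and 19 bases upstream (chr1:213833624-213833873, minus strand). Cox6b2, the gene with the smallest p-value below, has neither (chr1:78122621-78122870, plus strand).
Ndufa11: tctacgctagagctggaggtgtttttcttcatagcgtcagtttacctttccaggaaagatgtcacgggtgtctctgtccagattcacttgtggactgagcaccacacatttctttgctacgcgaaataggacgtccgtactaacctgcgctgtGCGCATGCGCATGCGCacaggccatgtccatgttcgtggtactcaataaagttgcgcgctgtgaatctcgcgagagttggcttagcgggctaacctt
Atp5po: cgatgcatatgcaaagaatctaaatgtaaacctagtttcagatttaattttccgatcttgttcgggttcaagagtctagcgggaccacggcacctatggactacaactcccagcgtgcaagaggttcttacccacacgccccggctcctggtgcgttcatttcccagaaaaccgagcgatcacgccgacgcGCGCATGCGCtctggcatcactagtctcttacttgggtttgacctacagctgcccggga
Cox8a: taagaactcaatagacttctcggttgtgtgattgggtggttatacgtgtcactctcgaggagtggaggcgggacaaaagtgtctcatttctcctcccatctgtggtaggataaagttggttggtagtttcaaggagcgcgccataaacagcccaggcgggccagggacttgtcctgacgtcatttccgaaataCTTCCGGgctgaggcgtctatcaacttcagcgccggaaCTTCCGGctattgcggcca
Cox6b2: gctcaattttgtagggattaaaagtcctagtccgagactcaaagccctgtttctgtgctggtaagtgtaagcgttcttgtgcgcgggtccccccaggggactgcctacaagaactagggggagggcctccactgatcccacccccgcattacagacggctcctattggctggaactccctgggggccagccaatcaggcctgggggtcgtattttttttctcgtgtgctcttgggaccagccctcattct

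The probe sets of the 84 genes read high. Their median level over the 8 arrays was 11.54, against 8.43 for all tested probe sets, and 69 of the 84 averaged 10 or more. Those with lower readings included muscle and testis forms of complex IV subunits and most of the assembly factors. By group, the median level ran from 8.22 for the assembly factors over 10.74 for the complex I core to 12.34 for ATP synthase, but levels of different probe sets also depend on how well each probe set binds and give no order of abundance. The control arrays lay close together, with a median SD over the genes of 0.05 (n = 2), against 0.24 in prone (n = 3) and 0.40 in supine lungs (n = 3).

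The first comparison asked what ventilation in the prone position did to these genes. Nearly all stood lower in the prone lungs. 78 of the 82 tested genes were lower than in controls, and their median difference was -0.49, a fold of 0.711. Over all 16896 tested probe sets the median difference was -0.12 and 56.5% were lower. No gene passed the test (limma, Benjamini-Hochberg adjusted over all tested probe sets, threshold 0.05), where 0.0473% of all tested probe sets passed lower and 0.00592% higher. The smallest adjusted p among the 82 was 0.0787, so what follows describes values and not established changes of single genes. At an unadjusted p under 0.05, 21 genes were lower and 1 was higher, against 10% and 7.67% of all tested probe sets. In 64 of the 82 genes all 3 prone values lay below both controls, a separation seen in 27.7% of all tested probe sets, and in 2 genes they lay above both, against 20.9%. All tested probe sets had a lower median level than these genes, as given above, and no share at a matched level is given.

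The second comparison asked the same of supine ventilation, against the same 2 controls, which both comparisons share. 73 of 82 genes were lower, with a median difference of -0.49 and a fold of 0.712, where the median over all tested probe sets was -0.07 and 53.8% were lower. Again none passed the test, with 0.0473% of all tested probe sets passing lower and 0.00592% higher, and the smallest adjusted p by limma was 0.134. At an unadjusted p under 0.05, 12 genes were lower and 1 higher, against 8.05% and 7.18% of all. Without overlap, 44 genes were lower and 2 were higher, against 21.8% and 20% of all tested probe sets. The 44 became 70 without supine replicate 1. With fewer arrays such a separation is easier to reach for any probe set. The share of all tested probe sets at that setting is not given here. In 43 genes all 6 ventilated arrays lay below both controls, where 16.7% of all tested probe sets did so, and in 2, Cox5a and Ndufaf4, all 6 lay above, against 12.9%.

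**Figure D1:**
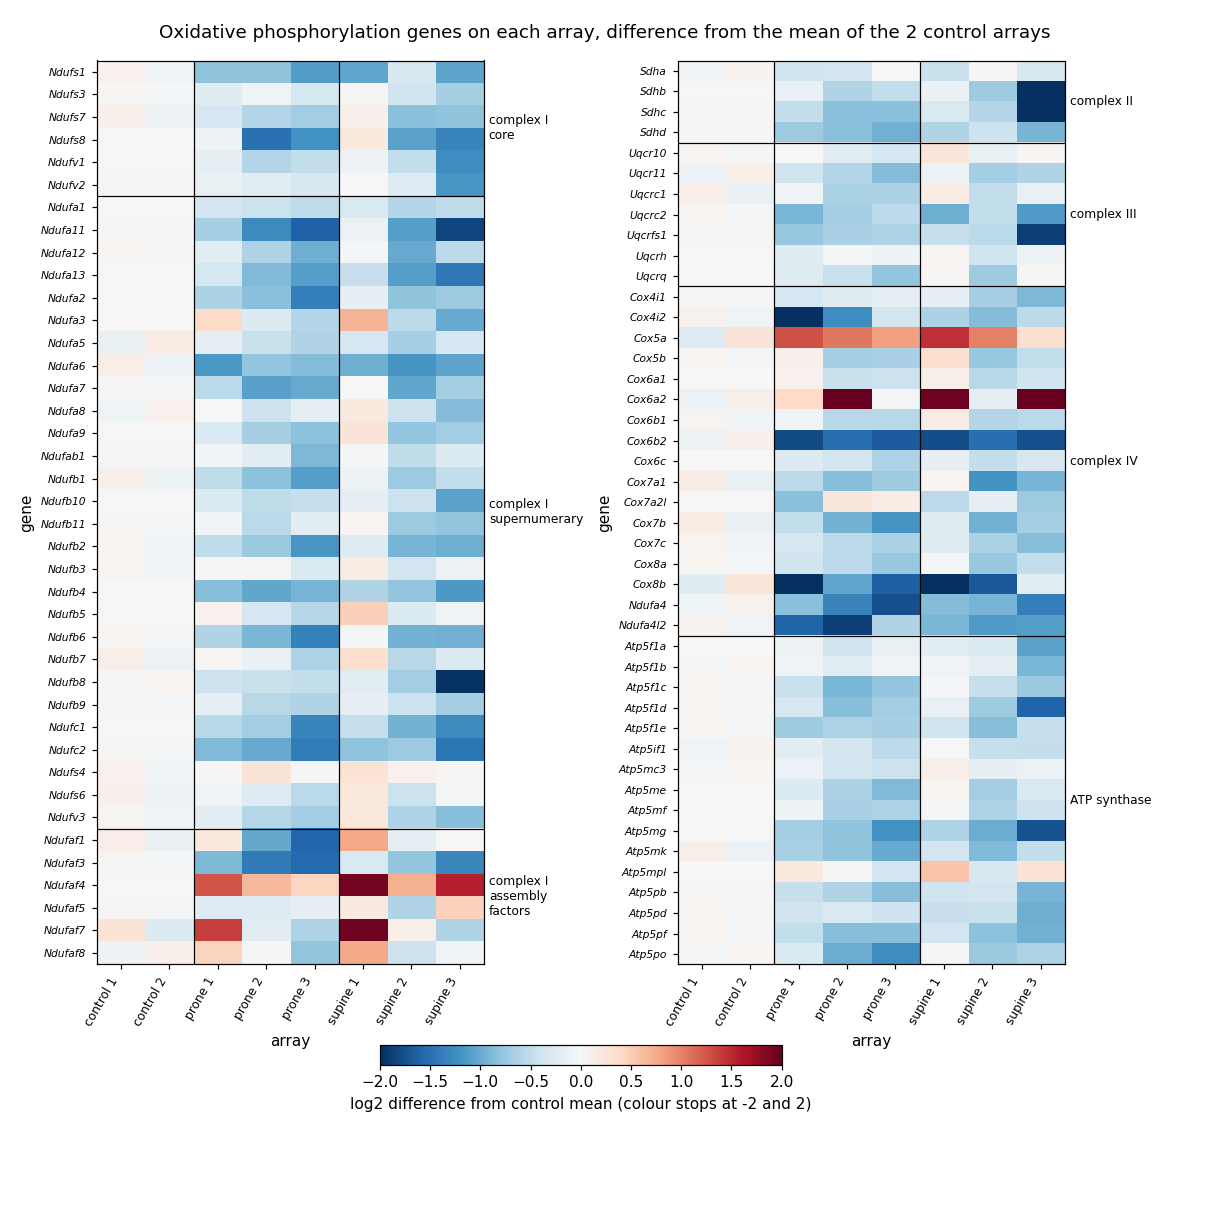
Log2 difference of each of the 84 genes (rows, ordered by complex) from the mean of the 2 control arrays on each of the 8 arrays (columns), with blue for lower, red for higher and colour stopping at -2 and 2. Most rows are blue on all prone and supine arrays and palest on supine replicate 1, while Cox5a and Ndufaf4 are red on all 6.

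The arrays of a group did not contribute equally. The median difference of the genes from the control mean was -0.29, -0.59 and -0.63 on prone replicates 1 to 3. On supine replicates 1 to 3 it was -0.08, -0.61 and -0.69. The first prone and the first supine array were thus nearest to the controls, and these are the arrays with the highest neutrophil markers. Over all tested probe sets the same medians ran only from -0.14 to 0.01. On these first arrays the mean of 5 macrophage and monocyte markers was also highest, at 10.08 and 10.63, against 8.74 to 9.59 elsewhere. Of these markers, Mrc1, Csf1r and Cd163 were not highest on both. Prone replicate 1 gave the highest prone value of 65 of the 84 genes and supine replicate 1 the highest supine value of 71. The number of genes below both controls was 66, 75 and 78 on the prone arrays and 46, 79 and 72 on the supine arrays. Neither these counts nor the highest-value counts were made over all tested probe sets, so they only set the arrays side by side. Without the first array of each position, the median difference was -0.63 in prone and -0.68 in supine lungs. Without prone replicate 2 and supine replicate 3 it was -0.48 and -0.38, with 78 and 73 genes lower. These were the arrays with the highest means of cardiac muscle and hepatocyte markers, though not the only ones with such transcripts. The part of neutrophils or other admixed cells in these values was not tested.

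**Figure D2:**
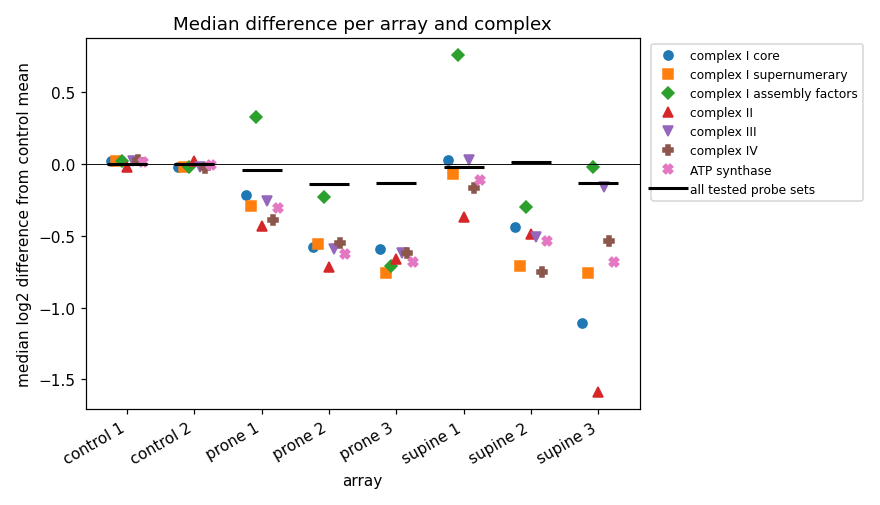
Median log2 difference from the control mean on each array, for each complex (symbols) and for all tested probe sets (black bars). On prone replicates 2 and 3 and supine replicate 2 every complex lies below the black bar, while on supine replicate 1 several lie near 0, and complex II reaches -1.59 on supine replicate 3.

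The 6 core subunits of complex I, which hold the flavin and most of the iron-sulfur clusters along which electrons travel, were all lower in both positions, with medians of -0.48 in prone and -0.56 in supine lungs. All 6 lay below both controls in prone lungs and 2 did in supine lungs, against 27.7% and 21.8% of all tested probe sets. Ndufs1, the large iron-sulfur subunit of the arm that reaches into the matrix, read 11.05 and 10.89 in controls, 10.16, 10.16 and 9.85 in prone and 9.93, 10.65 and 9.92 in supine lungs. Every ventilated value lay below both controls, by -0.91 in prone and -0.80 in supine lungs (SE 0.33 for prone, adjusted p by limma = 0.215 and 0.311). Ndufs8, which carries iron-sulfur clusters close to the ubiquinone site, read 10.10 and 10.09 in controls, 10, 8.60 and 8.89 in prone and 10.29, 9.03 and 8.77 in supine lungs. Its first prone and supine arrays sat at the control level and the others more than 1 unit lower, so that its supine difference of -0.73 became -1.20 without supine replicate 1 and -0.44 without supine replicate 3. Ndufv1, which binds NADH and the flavin, was lower by -0.42 and -0.61, the latter -0.29 without supine replicate 3. Ndufv2, its partner in the NADH-binding tip, had the highest level of the core genes at a mean of 11.54 and differed by -0.23 and -0.47, the latter -0.13 without supine replicate 3 and -0.71 without supine replicate 1.

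The 28 supernumerary subunits surround the core and are needed for its assembly and stability. 27 were lower in prone lungs and 26 in supine lungs, with medians of -0.47 and -0.48, and 21 and 17 lay below both controls, against 27.7% and 21.8% of all tested probe sets. Ndufa11, a membrane subunit at the contact of complex I with complex III, read 10.80 and 10.86 in controls, 10.16, 9.55 and 9.22 in prone and 10.71, 9.73 and 8.99 in supine lungs. All 6 ventilated arrays were lower, but supine replicate 1 by little. Its differences were -1.18 and -1.02, the largest of the group in prone lungs, with adjusted p by limma of 0.296 and 0.387, and the supine one was -0.61 without supine replicate 3. Ndufc2, a small membrane subunit, read 12.70 and 12.65 in controls, 11.79, 11.67 and 11.28 in prone and 11.87, 11.95 and 11.21 in supine lungs. It was among the steadiest of the lower genes, with every ventilated array at 11.95 or lower, and its differences were -1.09 and -1.0 (adjusted p by limma = 0.171 and 0.269). Ndufa6, a LYR-motif protein that binds the acyl carrier protein Ndufab1, differed by -0.95 and -1.07 (adjusted p by limma = 0.155 and 0.213), and Ndufb4, a membrane-arm subunit, by -0.94 and -0.85 (0.166 and 0.266). Ndufab1 itself, which also serves mitochondrial fatty acid synthesis, differed by only -0.40 and -0.27, and the values were -0.14 without prone replicate 3 and -0.16 without supine replicate 2.

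Not every supernumerary gene stood lower. Ndufs4, a subunit whose loss causes Leigh syndrome, read 10.43 and 10.25 in controls, 10.36, 10.59 and 10.32 in prone and 10.62, 10.42 and 10.37 in supine lungs. Its groups overlapped and it differed by 0.08 and 0.13, with 95% intervals of -0.53 to 0.70 in prone and -0.49 to 0.75 in supine lungs. Ndufa1, the gene of this group with the highest level at a mean of 13.49, was lower on all 6 ventilated arrays, which spanned 13.24 to 13.52 against 13.84 and 13.81. Ndufa2, which has a thioredoxin-like fold, differed by -0.94 and -0.56. Ndufb8, a membrane-arm subunit, differed by -0.45 and -0.96, the latter resting on supine replicate 3 at 4.67, without which it was also -0.45.

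Among the Ndufaf assembly factors the median was -0.12 in prone and 0.10 in supine lungs, with 3 of 5 tested genes lower in prone and 1 of 5 in supine lungs. Ndufaf3 and Ndufaf4 bind each other early in the building of complex I. Ndufaf4 read 9.57 and 9.60 in controls, 10.85, 10.23 and 10.01 in prone and 11.50, 10.30 and 11.14 in supine lungs. Every ventilated array was above both controls, by 0.78 in prone and 1.40 in supine lungs (SE 0.43 for prone, adjusted p by limma = 0.394 and 0.252). Its partner Ndufaf3 read 9.78 and 9.74 in controls, 8.86, 8.34 and 8.21 in prone and 9.45, 8.99 and 8.45 in supine lungs, below both controls throughout, with differences of -1.29 and -0.80 (adjusted p by limma = 0.161 and 0.358). The 2 partners thus lay on opposite sides of the controls on all 6 ventilated arrays. Ndufaf7, a methyltransferase acting on complex I, differed by 0.18 and 0.49, and these signs turned to -0.42 without prone replicate 1 and -0.24 without supine replicate 1. Its second probe set, at a lower level, gave -0.18 and -0.02. Ndufaf1 was at or below 5.35 on every array and was not tested.

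Complex II, the only complex that also works in the tricarboxylic acid cycle, had 4 of 4 subunits lower in both positions, with medians of -0.57 and -0.84. Sdhd, a membrane anchor, read 12.44 and 12.48 in controls, 11.74, 11.63 and 11.50 in prone and 11.86, 12.05 and 11.53 in supine lungs. It was lower on all 6 ventilated arrays, by -0.84 and -0.65 (adjusted p by limma = 0.196 and 0.331). Sdha, the flavoprotein that oxidises succinate, overlapped with controls in both positions and differed by -0.26 and -0.25, the latter -0.15 without supine replicate 1 and -0.38 without supine replicate 2. Sdhb, the iron-sulfur subunit, read 11.90 and 11.87 in controls, 11.73, 11.28 and 11.39 in prone and 11.75, 11.18 and 9.64 in supine lungs, and Sdhc, the other anchor, stood at 9.38 on supine replicate 3 and at 11.07 to 11.94 elsewhere. Both genes were far lower on supine replicate 3 than on any other array. Their supine differences of -1.03 and -1.13 were -0.42 and -0.44 without that array, the one with the high 3′ to 5′ ratio. The part of RNA quality in these values was not tested.

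The 7 complex III genes were all lower in prone lungs, with a median of -0.49, while in supine lungs 6 were lower with a median of -0.22. Uqcrc2, a core protein of the complex, read 12.88 and 12.80 in controls, 11.92, 12.16 and 12.31 in prone and 11.87, 12.35 and 11.71 in supine lungs. All ventilated values lay below the controls, by -0.71 and -0.86 (adjusted p by limma = 0.282 and 0.281). Its second probe set, at a lower level, gave 0.11 and -1.70, and the mean of both gave -0.30 in prone lungs. Uqcrfs1, the Rieske iron-sulfur protein that passes electrons towards cytochrome c, differed by -0.67 and -0.96, the latter -0.50 without supine replicate 3. Uqcrc1, the other core protein, overlapped with controls in both positions, at -0.45 and -0.17, the latter -0.01 without supine replicate 2 and -0.33 without supine replicate 1. Uqcr10, a small subunit with the highest level of the group, a mean of 12.72, differed by -0.19 and 0.03.

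**Figure D3:**
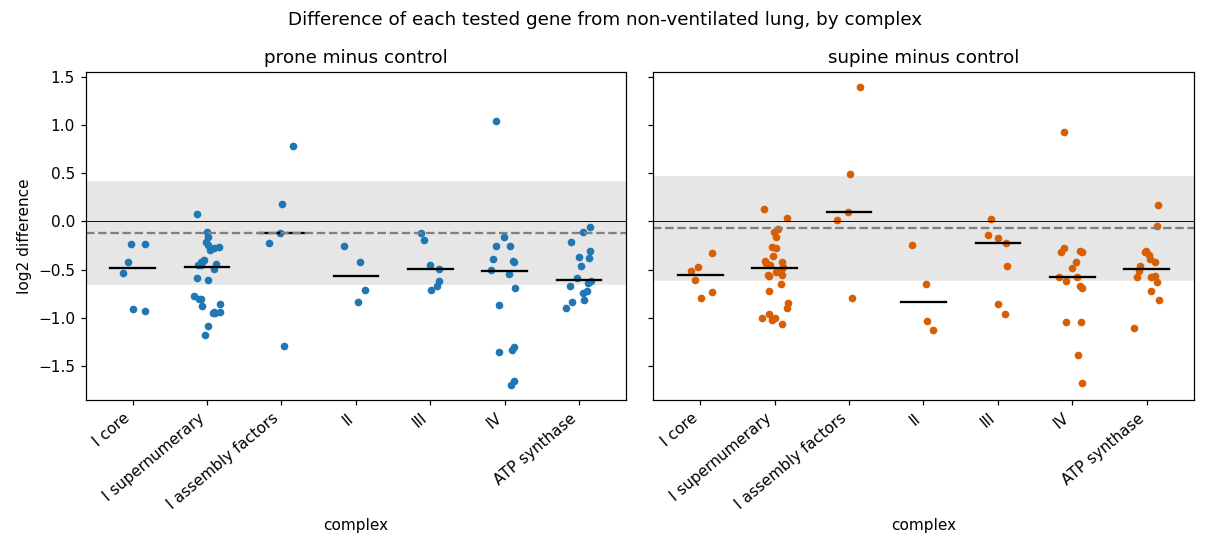
Log2 difference from control of each of the 82 tested genes in prone (left) and supine (right) lungs, one point per gene, by complex. Black bars mark medians, the dashed line the median of all tested probe sets and the grey band its middle 50%. Group medians lie below the dashed line except for the assembly factors, at -0.12 in prone and 0.10 in supine lungs, and complex IV spans -1.70 to 1.04 in prone lungs. Apart from complex II in supine lungs, at -0.84, all group medians lie within the grey band.

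Complex IV, the cytochrome c oxidase, had the widest spread. 15 of 16 tested genes were lower in each position, with medians of -0.52 and -0.58, and in prone lungs both the largest negative and the largest positive difference of the 82 genes came from it. Several of its subunits exist as paired isoforms, a widely expressed form and one of a particular tissue. Cox6b2, the form known from testis, read 7.24 and 7.45 in controls, 5.55, 5.84 and 5.68 in prone and 5.57, 5.84 and 5.58 in supine lungs. Its ventilated arrays lay close together and far below both controls. The means were 7.34 ± 0.15 (SD, n = 2) in controls, 5.69 ± 0.15 (n = 3) in prone and 5.66 ± 0.16 (n = 3) in supine lungs. The differences were -1.66 and -1.68 (SE 0.27), folds of 0.317 and 0.312, with the smallest adjusted p of all these genes in both comparisons, 0.0787 and 0.134 by limma. Without the first prone and supine arrays the prone adjusted p by limma was 0.0441, and over all alternatives it ran from 0.0441 to 0.679. Leaving out those arrays was chosen after seeing the data and called many more probe sets than the main analysis. The widely expressed Cox6b1 differed by -0.39 and -0.32, the latter -0.56 without supine replicate 1 and -0.19 without supine replicate 2.

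Cox4i2, the form of subunit 4 found mainly in lung and tied to oxygen sensing, read 9.05 and 8.90 in controls, 6.56, 7.74 and 8.61 in prone and 8.35, 8.11 and 8.45 in supine lungs. It lay below both controls on every ventilated array and spread widely in prone lungs. The differences were -1.34 and -0.67 (adjusted p by limma = 0.268 and 0.563), and the prone one was -0.80 without prone replicate 1. Its common counterpart Cox4i1, at 13.54 and 13.60 in controls, differed by -0.26 and -0.58, also with every ventilated array below both controls, and the prone value was -0.11 with arrays centred on their medians. Ndufa4, first assigned to complex I and now counted as a subunit of complex IV, read 13.04 and 13.20 in controls, 12.28, 11.79 and 11.36 in prone and 12.25, 12.19 and 11.76 in supine lungs. Every ventilated array lay clearly below the lower control. The differences were -1.31 and -1.05, folds of 0.402 and 0.482 (adjusted p by limma = 0.142 and 0.269). Its paralogue Ndufa4l2, known as a hypoxia-induced gene, differed by -1.36 and -1.05 (0.167 and 0.30) and was likewise lower on all 6.

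The muscle isoforms are given with the muscle markers beside them. Besides the cardiac markers above, the mean of 4 skeletal muscle markers was 4.47 to 4.81 in controls and 5.96 to 7.11 on ventilated arrays. Cox8b, a heart and skeletal muscle form, read 9.13 and 9.62 in controls, 6.95, 8.33 and 7.74 in prone and 7.10, 7.70 and 9.15 in supine lungs. It was lower in prone lungs by -1.70, the largest difference of all (adjusted p by limma = 0.238), and by -1.39 in supine lungs, where supine replicate 3 overlapped with the controls. The highest ventilated values fell on prone replicate 2 and supine replicate 3, the arrays with the highest cardiac markers. Cox6a2, another heart and skeletal muscle form, read 1.56 and 1.78 in controls, 2.07, 4.89 and 1.65 in prone and 3.61, 1.48 and 5.63 in supine lungs, and its highest values fell on the same pair of arrays. Cox7a1, the third such form, differed by -0.69 in both positions, the supine value being -1.06 without supine replicate 1 and -0.44 without supine replicate 2. The mean of 3 brown adipocyte markers, another tissue that carries such forms, was 5.0 to 5.53 in controls and 4.53 to 5.74 on ventilated arrays. The part of admixed muscle or fat in these values was not tested. The widely expressed Cox6a1 and Cox8a differed by -0.26 and -0.55 in prone and by -0.28 and -0.42 in supine lungs. For Cox6a1 the prone value was -0.43 without prone replicate 1 and -0.17 without either of the others, and the supine value was -0.47 without supine replicate 1 and -0.14 without supine replicate 2, while for Cox8a it was -0.26 without supine replicate 2. Cox7a2l, which helps complexes III and IV join, had no settled direction in prone lungs, at -0.16 and at 0.18 without prone replicate 1.

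**Figure D4:**
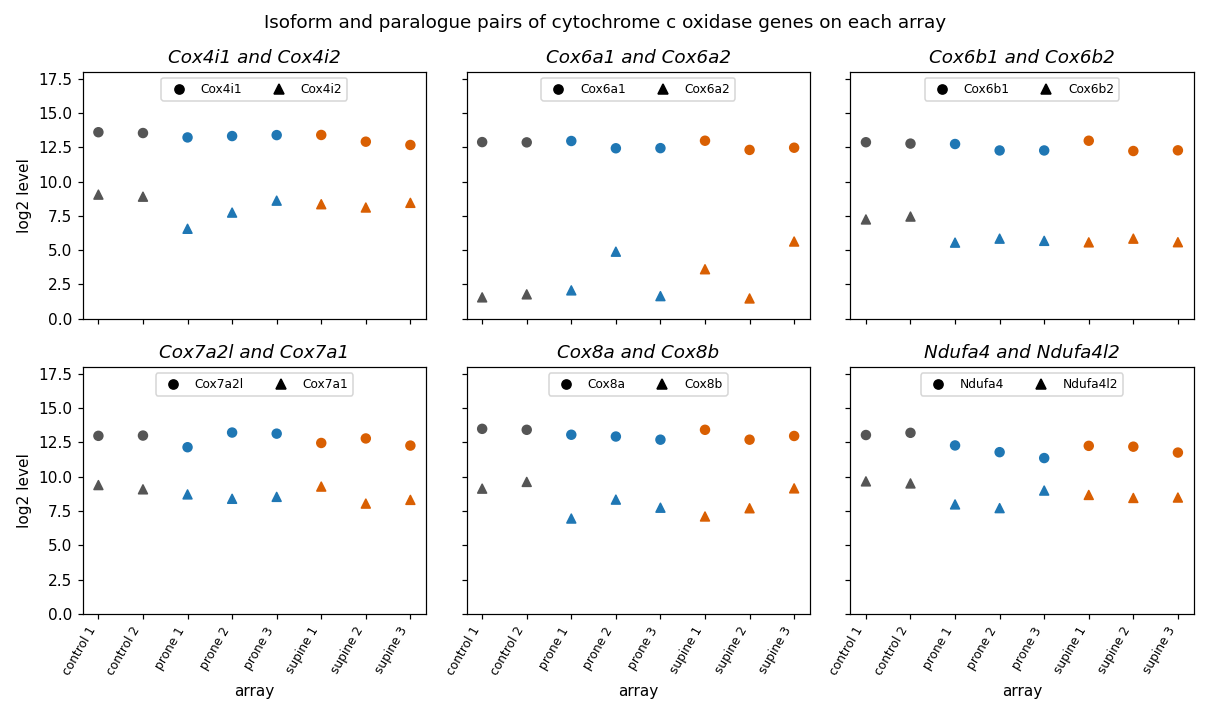
Log2 level of 6 pairs of complex IV isoforms or paralogues on each array, with colours for control (grey), prone (blue) and supine (orange). Circles mark the widely expressed form and triangles the other. In the pair with Cox7a1 the circles are Cox7a2l instead, and Cox7a2 is not shown. Cox6b2 lies at 7.24 and 7.45 in controls and at 5.55 to 5.84 on the 6 ventilated arrays, and Cox6a2 is highest on prone replicate 2 and supine replicate 3.

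Cox5a, a subunit on the matrix side of the oxidase, was the only tested complex IV gene that stood higher. Its probe set read 6.87 and 7.39 in controls, 8.41, 8.18 and 7.95 in prone and 8.59, 8.13 and 7.45 in supine lungs, above both controls throughout, with differences of 1.04 and 0.93 (adjusted p by limma = 0.237 and 0.33). This probe set may not stand for the whole of the Cox5a signal. Another, which the platform assigns to Cox5a together with a second locus and which was therefore not a member, read 12.89 to 13.86 over the 8 arrays and differed by -0.13 and -0.12. Cox7b and Cox6c, small subunits at high level, were lower on all 6 ventilated arrays, with differences of -0.87 and -0.62 for Cox7b and of -0.42 and -0.32 for Cox6c.

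ATP synthase had all 16 genes lower in prone lungs, with a median of -0.61 and 15 of them below both controls, and 15 of 16 lower in supine lungs, with a median of -0.49 and 10 below both controls. Over all tested probe sets 27.7% and 21.8% lay below both controls. Atp5f1b, the catalytic beta subunit, read 13.21 and 13.28 in controls, 13.18, 13.04 and 13.18 in prone and 13.18, 13.05 and 12.33 in supine lungs. Apart from supine replicate 3, every ventilated value lay just below the controls. Its prone difference was -0.11 and turned to 0.03 with arrays centred on their medians. Its supine difference was -0.39, or -0.13 without supine replicate 3. Atp5f1a, the alpha subunit, differed by -0.21 and -0.52, and by -0.07 in prone lungs with centred arrays and -0.24 in supine lungs without supine replicate 3. Of the central stalk, gamma (Atp5f1c) differed by -0.72 and -0.42, delta (Atp5f1d) by -0.62 and -0.82 and epsilon (Atp5f1e) by -0.67 and -0.58, with supine values of -0.25 for gamma and -0.43 for delta without supine replicate 3.

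In prone lungs some membrane and stator subunits of ATP synthase stood further below the controls than the head and stalk subunits above. Others did not, such as Atp5mc3 at -0.31 and Atp5mf at -0.46, and in supine lungs the values of these parts overlapped. Atp5mg, a membrane subunit involved in pairing of the enzyme, read 13.33 and 13.32 in controls, 12.64, 12.52 and 12.12 in prone and 12.71, 12.34 and 11.59 in supine lungs. All 6 ventilated values lay well under the controls, at -0.90 and -1.11, the largest differences of this complex (adjusted p by limma = 0.281 and 0.276). Atp5mk, a small membrane subunit, differed by -0.82 and -0.58, Atp5pf, a stator subunit, by -0.74 and -0.72, and Atp5po, the stator protein that holds the head, by -0.84 and -0.46. Atp5mpl, another small membrane subunit, lay among the controls at -0.06 and 0.17, and its sign changed with the arrays used. The inhibitor Atp5if1, which blocks ATP hydrolysis when the membrane potential is lost, differed by -0.37 and -0.31 and overlapped with controls in supine lungs. The mean with its second, low probe set gave -0.01 and -0.06. Between these subunits no difference was tested.

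Genes with an NRF1 match stood slightly nearer to the controls and those with an ETS match slightly further away, which was not tested. In prone lungs the median difference was -0.45 for the 15 tested genes with an NRF1 match and -0.55 for the 60 without, and in supine lungs -0.32 and -0.57. For the ETS motif it was -0.59 for the 21 with and -0.48 for the 54 without in prone lungs, and -0.58 and -0.48 in supine lungs. Both Ndufa11, with overlapping NRF1 matches, and Cox6b2, with neither motif, were among the genes with large differences. Nrf1 itself, the transcription factor, differed by 0.76 and 0.79 (SE 0.33, adjusted p by limma = 0.288 and 0.322). It was chosen after its values were seen, because its motif was searched.

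The third comparison asked whether position mattered for these genes, with supine set against prone lungs and no controls involved. It gave no difference beyond the spread between rats. Of 82 genes 52 were higher and 30 lower in supine lungs, with a median of 0.08, where the median over all tested probe sets was 0.03. None passed the test, where 0% of all tested probe sets did in either direction, and the smallest adjusted p by limma was 0.942. At an unadjusted p under 0.05 there were also 0 genes in either direction, against 2.6% higher and 1.49% lower of all tested probe sets. Only Atp5pd, a stator subunit, had all supine values below all prone values, where 2.11% of tested probe sets did, and 0 genes had them above, against 3.78%. The split was unstable. 39 genes were lower with arrays centred on their medians, and 48 without prone replicate 3, 53 without supine replicate 1 and 13 without supine replicate 3.

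The extremes of this comparison came with wide intervals. Cox4i2 stood higher in supine lungs by 0.67, with a 95% interval of -0.48 to 1.82, and Ndufaf4 by 0.62 (-0.29 to 1.52). Leaving out prone replicate 1 gave 0.13 for Cox4i2 and leaving out prone replicate 3 gave 1.15, and that of Ndufaf4 was 0.35 without supine replicate 1 and 0.96 without supine replicate 2. Ndufaf3 stood higher by 0.49 (-0.30 to 1.28), with 0.25 on leaving out supine replicate 1 and 0.75 on leaving out supine replicate 3, and Ndufa2 by 0.38 (-0.34 to 1.10), or 0.18 without supine replicate 1 and 0.17 without prone replicate 3. In the other direction Sdhb stood lower by -0.60 (-1.82 to 0.61), Ndufb8 by -0.51 (-1.54 to 0.53) and Sdhc by -0.42 (-1.74 to 0.89). These 3 rested on supine replicate 3, and without it they were 0.01, 0.00 and 0.28. Cox7a2l stood lower by -0.32 (-1.14 to 0.49), or -0.67 without prone replicate 1 and -0.13 without prone replicate 2. The intervals leave room for differences of more than 1 log2 unit in each of these 8 genes.

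Genes that work beside the complexes were taken from lists of related mitochondrial functions, and none of them passed the test in either ventilated group. Of the tested electron carriers and their makers, 11 were lower in prone lungs (median -0.51) and 9 in supine lungs (median -0.25). These 14 genes did not include cytochrome c. Among them Etfa, which brings electrons from fatty acid oxidation to the chain, read 12.01 and 11.92 in controls, 10.07, 10.84 and 10.63 in prone and 10.38, 11.05 and 9.38 in supine lungs. It lay below both controls on all 6 ventilated arrays, by -1.45 and -1.69 (adjusted p by limma = 0.206 and 0.243). Coq10b, a coenzyme Q binding protein, lay above both on all 6, by 2.10 and 1.58, or 0.76 in supine lungs without supine replicate 3. The 14 tricarboxylic acid cycle genes were nearer to the controls, with 9 lower and a median of -0.04 in prone and 11 lower and a median of -0.20 in supine lungs. Idh3g, a subunit of isocitrate dehydrogenase, differed by -0.75 and -0.50, and Suclg2, a subunit of succinate-CoA ligase, by -0.58 and -0.62.

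Of 32 tested assembly factors outside the name pattern, 23 were lower in prone lungs (median -0.50) and 15 in supine lungs (median 0.03). Members of this list went both ways. Atpaf1, an ATP synthase assembly factor, differed by -1.87 and -0.75, or -0.44 in supine lungs without supine replicate 3. Sdhaf4 and Sdhaf1, both assembly factors of complex II, differed by -1.28 and -1.24 and by 1.21 and 0.85, respectively, and the supine value of Sdhaf1 was 0.40 without supine replicate 1. Of 72 tested genes of the mitochondrial ribosome, which makes the subunits encoded in the mitochondrion, 54 were lower in prone (median -0.32) and 46 in supine lungs (median -0.16). Mrpl14 and Mrpl20 differed by -1.57 and -1.67 in prone lungs, and Mrps6 by 1.66.

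Of 14 tested regulators of mitochondrial biogenesis, 11 were higher in prone and 12 in supine lungs, with medians of 0.14 and 0.33. Over all tested probe sets 43.5% and 46.2% were higher, and the medians of the regulators lay within the middle 50% of all differences. Pprc1, a coactivator related to PGC-1alpha that responds early to growth signals, read 7.59 and 7.82 in controls, 10.82, 9.19 and 8.74 in prone and 11.02, 9.77 and 10.91 in supine lungs. Every ventilated array lay above both controls, by 1.88 and 2.86 (SE 0.66, adjusted p by limma = 0.211 and 0.194). Ppargc1a, which encodes PGC-1alpha itself, differed by -0.86 and -1.53, but its values were split, at 4.47 and 4.39 on the first prone and supine arrays, 4.98 on supine replicate 3 and 6.79 to 7.13 on the other 5. Leaving out prone replicate 1 gave -0.04 and leaving out prone replicate 2 gave -1.33, and the supine value was -1.01 without supine replicate 1. Among 9 transport, uncoupling and inhibitor genes, Ucp2, a carrier of the inner membrane, differed by -1.42 and -1.95, or -1.15 in supine lungs without supine replicate 3, and Slc25a3, the phosphate carrier, by 0.59 and 0.29, the latter 0.18 without supine replicate 1.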

How the data were processed

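RNA from 8 rat lungs was labelled with biotin from 300 ng each and hybridised to 1-colour Affymetrix arrays. The authors deposited log2 values, which per the submitters' processing notes are GCRMA summaries, with Partek 6.5 also named; GCRMA corrects background by probe sequence, sets arrays to the same quantiles and summarises probes into probe sets. The deposited table held 20242 probe sets. Groups came from the condition labels (2 control, 3 prone, 3 supine), and the titles call the samples biological replicates. 28 control probe sets were set aside, and the test took the 16896 others that reached log2 5 on 2 or more arrays. Gene symbols came from the platform annotation; 0 member symbols differed from RefSeq (GRCr8). A gene's probe set with the highest mean was used, and 7 probe sets with several symbols were left out.

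A linear model with a mean for each group used all 8 arrays (limma 3.58.1, R 4.3.3, lmFit, eBayes, 5 residual and 2.51 prior degrees of freedom), two-sided, with Benjamini-Hochberg adjustment over all tested probe sets within each of the 3 comparisons. SE and 95% intervals are of this model. The number of arrays limits the precision. The fit was tested on simulated data. Genes named were those called, the 4 largest differences in each direction per comparison, the gene with the highest level per complex, isoform sets, and the extremes of the related lists; other subunits were added by role after their values were seen. The members and lists were chosen with earlier results of these data known. Same-numbered samples of different groups deviated together, with correlations of their deviations from group means of 0.11 to 0.72 over all tested probe sets. Some pairs of unlike number correlated as well, up to 0.40 for prone 3 with supine 2. The deviations of the 2 controls mirror each other, so these correlations are not independent of one another. The replicate number was treated as a possible pairing and tried as a block. Other alternatives were the filter, centring, quantile normalization, an intensity trend, only the compared groups, the mean of a gene's probe sets, and leaving out arrays.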

Additional observations from a re-analysis of the deposited data

How the results depend on the processing

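No gene passed in the main analysis, and among 19 alternatives 1 passed in 1 of them. With the first array of each position left out, Cox6b2 was lower in prone lungs (-1.59, adjusted p by limma = 0.0441), in an alternative chosen after seeing the data that made 728 calls over all probe sets, against 9 in the main analysis. Over the other alternatives the calls over all probe sets ran from 0 to 119 for prone and from 0 to 153 for supine against control, and from 0 to 3 for supine against prone, so counts of calls depend strongly on the processing; 0 were left with the replicate block in each comparison.

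The median difference of the genes was -0.35 with arrays centred on their medians (prone) and ran from -0.63 to -0.42 on leaving out single arrays. In supine lungs it ran from -0.68 to -0.38, and in supine against prone from -0.10 to 0.18. With the replicate block the 3 medians were -0.41, -0.42 and 0.08, and 0 of the genes were called. Without the first prone and supine arrays the prone median was -0.63. Genes lower without overlap in supine lungs ran from 44 to 70 on leaving out single arrays and were 70 without both first arrays. Separation is easier to reach with fewer arrays, and the shares of all tested probe sets are not given beside these counts. Genes lower in supine against prone lungs ran from 13 to 53 and were 15 without prone 2 and supine 3.

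Of 152 values of single genes in 19 alternatives, 29 turned sign, in 14 of the values, most of them close to 0. In prone lungs, centring gave 0.03 for Atp5f1b and 0.09 for Atp5mpl, and the block gave 0.01 for Atp5f1b. On leaving out single arrays the prone values ran from -0.18 to 0.11 for Atp5mpl, from -0.42 to 0.59 for Ndufaf7, from 0.00 to 0.17 for Ndufs4, from -0.24 to 0.30 for Idh3a, from -0.91 to 0.92 for Bcs1l and from -0.35 to 0.18 for Cox7a2l. The supine values ran from -0.02 to 0.42 for Atp5mpl, from -0.24 to 1.03 for Ndufaf7, from -0.07 to 0.13 for Uqcr10 (-0.01 without control replicate 2) and from -0.02 to 0.62 for Idh3a. In supine against prone lungs they ran from -0.88 to 0.00 for Ndufb8, from -1.05 to 0.01 for Sdhb and from -0.84 to 0.28 for Sdhc. Without both first arrays, Cox7a2l was 0.18, Ndufaf7 -0.42, Idh3a -0.24 and Bcs1l -0.91 in prone lungs, and Atp5mpl -0.02, Ndufaf7 -0.24, Uqcr10 -0.07 and Idh3a -0.02 in supine lungs. Without prone 2 and supine 3, Ndufb8 was 0.01 and Sdhc 0.21 in supine against prone lungs. Atpaf1 passed in prone lungs without both first arrays (-2.45, adjusted p by limma = 0.042). The cause was not tested for any of these. A low signal cannot be separated from background here, which limits genes near the filter, such as Cox6b2 and Ndufb8.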

Other observations

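7 probe sets carried the symbol of an oxidative phosphorylation gene together with that of a second locus and were not counted among the genes above. Most of them stood lower in ventilated lungs. Ndufs5, a small subunit of complex I, differed from control by -0.86 in prone and -0.76 in supine lungs, Cox7a2 by -0.57 and -0.42, Uqcrb, a complex III subunit, by -0.41 and -0.34, Ndufa10 by -0.27 and -0.13, and Cox5a by -0.13 and -0.12.

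The genes for the c subunit, which forms the rotating ring of ATP synthase, did not move alike. The probe set of Atp5mc1 and a related locus read 9.32 and 9.95 in controls, 11.41, 10.34 and 9.66 in prone and 11.69, 9.87 and 9.75 in supine lungs. Its first prone and supine arrays stood far above the rest, and the other ventilated arrays lay within or near the control range. The probe set of Atp5mc2 read 12.21 and 12.22 in controls and 10.4 on supine replicate 3, with the other ventilated arrays at 11.72 to 12.24. Atp5mc3, read by a probe set of its own, differed by -0.31 and -0.05. Which locus gave the signal of the shared probe sets cannot be told apart.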
